A study of Homo sapiens with 14 samples.

Results

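The set comprised 10 genes whose proteins bind the microtubules of the mitotic spindle: CKAP5, TACC3, GTSE1, NUSAP1, DLGAP5, HMMR, ASPM, SPAG5, CKAP2 and CKAP2L. The genes were chosen by name as spindle microtubule-associated proteins, with earlier results of these data known, and were matched by symbol. All 10 were found among the 26732 genes listed for both cell lines. The other gene lists and partners used below were also chosen with those results known. The shares of all genes given beside these counts are therefore a description and no independent test. Their RNA was sequenced in A549 and H1792, both established lines of human lung adenocarcinoma, after 48 h of exposure to DMSO or to 0.1 µM AMG900, which inhibits all aurora kinases. There were 4 groups: A549 DMSO (4 libraries), A549 AMG900 (4), H1792 DMSO (3) and H1792 AMG900 (3). A549 was grown in DMEM and H1792 in RPMI 1640, both with 10% FBS, so each response is that of 1 line in 1 medium. The treatment protocol speaks of 3 replicate dishes per treatment, while the labels list 4 replicates for A549. No source used here says whether replicates came from separate experiments, so the p-values measure the spread between these libraries, which may be technical.

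The mitotic spindle is a bipolar array of microtubules that pulls the duplicated chromosomes apart. Microtubule-associated proteins set how fast its fibres grow, bundle parallel fibres, tether them to kinetochores and gather their ends at the poles, and aurora kinases act on several of them: aurora A phosphorylates TACC3, and the phosphorylated protein joins clathrin and CKAP5 on spindle fibres. Many of these genes are transcribed in a cell cycle-dependent way, with a peak in G2 and mitosis, through promoter elements that include the cell cycle genes homology region (CHR, with the letters TTTGAA) and CCAAT boxes.

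Promoter windows from RefSeq (assembly GRCh38.p14, a later build than the GRCh37/hg19 named for the counts) were found for all 10 genes and searched on both strands for the CHR, for CCAAT boxes and for an E2F-like motif (TTTNNCGC). In windows from 250 bases before to 50 bases after the start, a CHR was present in 8 of the 10 genes against 15.2% of 35116 promoters. A CCAAT box was present in 7 of 10 against 34.6%, and the E2F-like motif in 2 of 10, NUSAP1 and SPAG5, against 6.9%. Neither CKAP2 nor TACC3 held any of the 3 motifs. The windows below, 150 bases before to 30 after the start, are shown for ASPM, DLGAP5 and HMMR, which had some of the largest changes in A549, for CKAP5, which had the smallest, and for CKAP2, the gene without a motif that was called in both lines. Each is written 5′ to 3′ on the strand of the gene, with every motif match in capitals on either strand. The CCAAT box and its reverse complement overlap in HMMR, in the run CCAATTGG.
ASPM (chr1:197146640-197146819, minus strand): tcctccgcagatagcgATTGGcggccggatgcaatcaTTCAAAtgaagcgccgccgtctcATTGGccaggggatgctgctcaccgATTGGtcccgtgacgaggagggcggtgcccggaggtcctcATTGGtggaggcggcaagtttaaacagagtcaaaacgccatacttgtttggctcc
DLGAP5 (chr14:55191556-55191735, minus strand): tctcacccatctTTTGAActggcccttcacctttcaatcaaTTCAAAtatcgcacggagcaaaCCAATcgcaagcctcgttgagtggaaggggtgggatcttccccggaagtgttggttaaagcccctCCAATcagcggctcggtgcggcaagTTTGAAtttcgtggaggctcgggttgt
HMMR (chr5:163460482-163460661, plus strand): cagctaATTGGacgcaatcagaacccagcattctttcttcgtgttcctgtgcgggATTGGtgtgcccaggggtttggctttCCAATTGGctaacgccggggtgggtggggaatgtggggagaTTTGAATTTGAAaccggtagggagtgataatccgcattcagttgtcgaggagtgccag
CKAP5 (chr11:46846251-46846430, minus strand): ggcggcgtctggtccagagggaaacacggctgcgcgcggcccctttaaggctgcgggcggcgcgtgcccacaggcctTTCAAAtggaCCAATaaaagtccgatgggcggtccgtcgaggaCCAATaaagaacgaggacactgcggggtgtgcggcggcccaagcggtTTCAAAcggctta
CKAP2 (chr13:52455838-52456017, plus strand): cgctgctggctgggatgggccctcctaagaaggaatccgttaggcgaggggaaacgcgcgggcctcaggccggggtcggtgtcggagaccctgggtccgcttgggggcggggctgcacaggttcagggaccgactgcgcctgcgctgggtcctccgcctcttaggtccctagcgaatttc

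HMMR held a pair of adjacent CHR matches just before its start, DLGAP5 held matches on both sides of its start, and ASPM held 4 CCAAT matches and 1 CHR match. CKAP5 held both motifs as well. A match is a run of letters and not a measured binding site, and no binding data were analysed here.

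Total counts ranged from 4254644 to 18962883 per library in A549 and from 42810734 to 79984064 in H1792, and A549 DMSO replicate 1 was the smallest library. Levels within a line are given as CPM, the counts scaled to a common library size with TMM factors, and a gene was called upregulated or downregulated at an FDR under 0.01 in the edgeR quasi-likelihood test over all genes tested (13174 in A549, 15017 in H1792). All 10 spindle genes passed the low-count filter in both lines. The marker sums that follow are CPM by total counts of each library, without TMM factors or the low-count filter. Epithelial markers (KRT8, KRT18, EPCAM, CDH1 and KRT19) summed to 4640 to 5654 CPM with DMSO and 5911 to 6637 CPM with AMG900 in A549, and to 689 to 816 and 796 to 812 CPM in H1792. All 4 of those tested in A549 were upregulated there, with log2 fold changes of 0.31 (KRT18) to 1.58 (KRT19), and KRT19 (0.54) was upregulated in H1792. The 4 endothelial markers (PECAM1, CDH5, VWF and KDR) summed to 0.705 to 6.61 CPM with DMSO and 0.437 to 1.58 CPM with AMG900 in A549, where none was tested. The H1792 sums were 4.77 to 17.5 and 8.95 to 9.79 CPM, which overlapped. There PECAM1 (0.76) and CDH5 (2.29) were upregulated, while VWF (-2.72, FDR = 0.0618) and KDR (0.30, FDR = 0.410) were not called. The 5 leukocyte markers summed to 2.08 to 6.59 CPM with DMSO and 9.51 to 11.3 CPM with AMG900 in A549, and to 1.46 to 1.80 and 2.43 to 2.87 CPM in H1792. CD3E was at 0 in every A549 library and PTPRC in every A549 DMSO library. The part of these marker shifts in the results was not tested.

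In A549, all 10 spindle genes were downregulated by AMG900, against 17.8% of all genes tested. Their log2 fold changes ranged from -3.99 for ASPM to -0.68 for CKAP5, with a median of -3.14, where the median over all genes tested was -0.01. In every one of the 10 genes all 4 AMG900 libraries lay below all 4 DMSO libraries, a separation seen in 22% of the genes tested. None was upregulated, against 17.2% of all genes. These are bulk RNA measurements, in which fewer cells in G2 or mitosis and less RNA per cell cannot be told apart.

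The H1792 response was much smaller. CKAP2 alone was downregulated among the 10 genes, against 18.8% of all genes tested, and none was upregulated in the edgeR test, against 16.2%. GTSE1 was the 1 gene that was higher at an unadjusted p under 0.05, and DESeq2 called 0 genes higher. The log2 fold changes of the 10 ranged from -0.66 to 0.17 with a median of -0.13, beside a median of 0.01 over all genes. All 3 AMG900 libraries lay below all 3 DMSO libraries for CKAP2, DLGAP5 and ASPM (29.6% of genes tested did so) and above them for TACC3 and GTSE1 (30.1%), and the groups overlapped for the other 5 genes. Averaged over the 10 genes, the AMG900 libraries lay 2.78 ± 0.102 (SD, n = 4) log2 CPM units under the DMSO mean in A549 and 0.15 ± 0.0472 (SD, n = 3) in H1792. The DMSO libraries had an SD of 0.0554 (n = 4) in A549 and 0.121 (n = 3) in H1792. On this average the H1792 groups overlapped, since DMSO replicate 1 (-0.135) lay below AMG900 replicate 3 (-0.108).

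**Figure D1:**
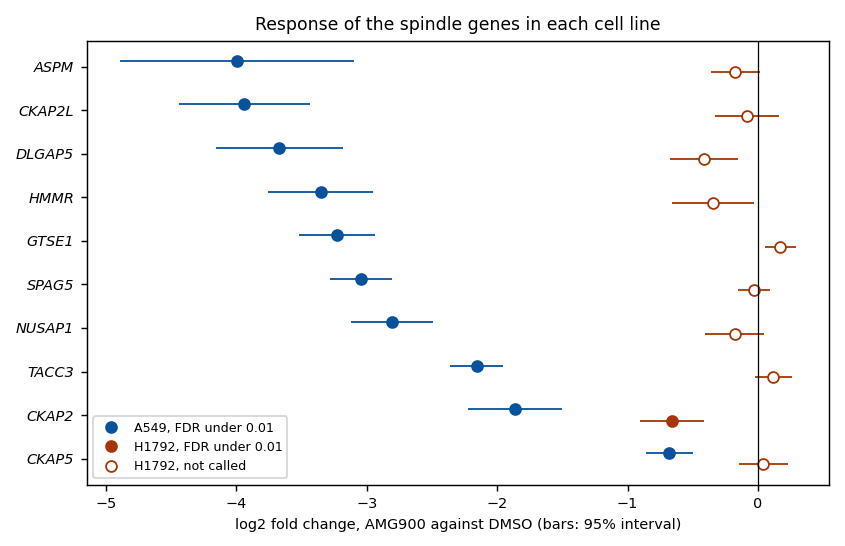
Log2 fold change of each spindle gene with AMG900 against DMSO (horizontal axis) in A549 (blue) and H1792 (brown). Points are edgeR estimates, bars are 95% intervals, and filled points passed an FDR of 0.01. Every A549 point lies between -3.99 and -0.68, whereas the H1792 points lie between -0.66 and 0.17 and only CKAP2 is filled.

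CKAP5, TACC3 and GTSE1 act on microtubule growth and on the fibres that bind kinetochores. CKAP5 (ch-TOG, chr11:46764598-46867859 in GRCh37) is a microtubule polymerase. With DMSO its 4 A549 libraries held 243, 295, 263 and 257 CPM, and with AMG900 they held 175, 169, 175 and 142 CPM. The groups did not overlap, and the log2 fold change of -0.68 ± 0.0840 (SE, FDR = 1.28e-05) corresponds to a 1.60-fold lower level, the only one of the 10 changes under 2-fold. In H1792 it held 168, 219.8 and 205 CPM with DMSO and 201, 206 and 203 CPM with AMG900. Here the AMG900 libraries lay inside the DMSO range, and the log2 fold change was 0.04 (95% interval -0.14 to 0.23, FDR = 0.706). That sign turned to -0.03 when libraries were scaled by total counts.

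TACC3 (chr4:1714585-1746898) cross-links spindle fibres together with clathrin and CKAP5. Its A549 DMSO libraries held 191, 145, 169.8 and 171 CPM, and its AMG900 libraries held 33.4, 38.1, 39.6 and 39.7 CPM. The lowest DMSO library was thus far above the highest AMG900 library, and the log2 fold change was -2.16 ± 0.0950 (SE, FDR = 2.29e-10), or 4.46-fold lower. In H1792 the DMSO libraries held 241, 205 and 228 CPM and the AMG900 libraries 241, 242 and 247 CPM. The top DMSO library all but reached the bottom AMG900 library, and the log2 fold change of 0.12 (95% interval -0.02 to 0.26, FDR = 0.139) was not called. TMEM129 overlaps TACC3 on the opposite strand, and whether reads were counted by strand is not given in the sources used here. TMEM129 moved the other way in A549, with a log2 fold change of 0.66 (FDR = 2.57e-05), and had one of 0.22 (FDR = 0.0114) in H1792.

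GTSE1 (chr22:46692767-46726707) binds microtubules and clathrin and inhibits the microtubule depolymerase encoded by KIF2C. Its A549 DMSO libraries held 64.6, 59.1, 59.8 and 68.0 CPM and its AMG900 libraries 8.50, 5.19, 6.15 and 7.18 CPM. The groups lay far apart and the level was 9.39-fold lower, with a log2 fold change of -3.23 ± 0.137 (SE, FDR = 1.61e-10). Its H1792 levels were 68.5, 69.1 and 70.6 CPM with DMSO and 80.0, 79.0 and 75.3 CPM with AMG900. All 3 AMG900 libraries were higher, but the log2 fold change of 0.17 (95% interval 0.05 to 0.29) had an FDR of 0.0221 and was not called.

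**Figure D2:**
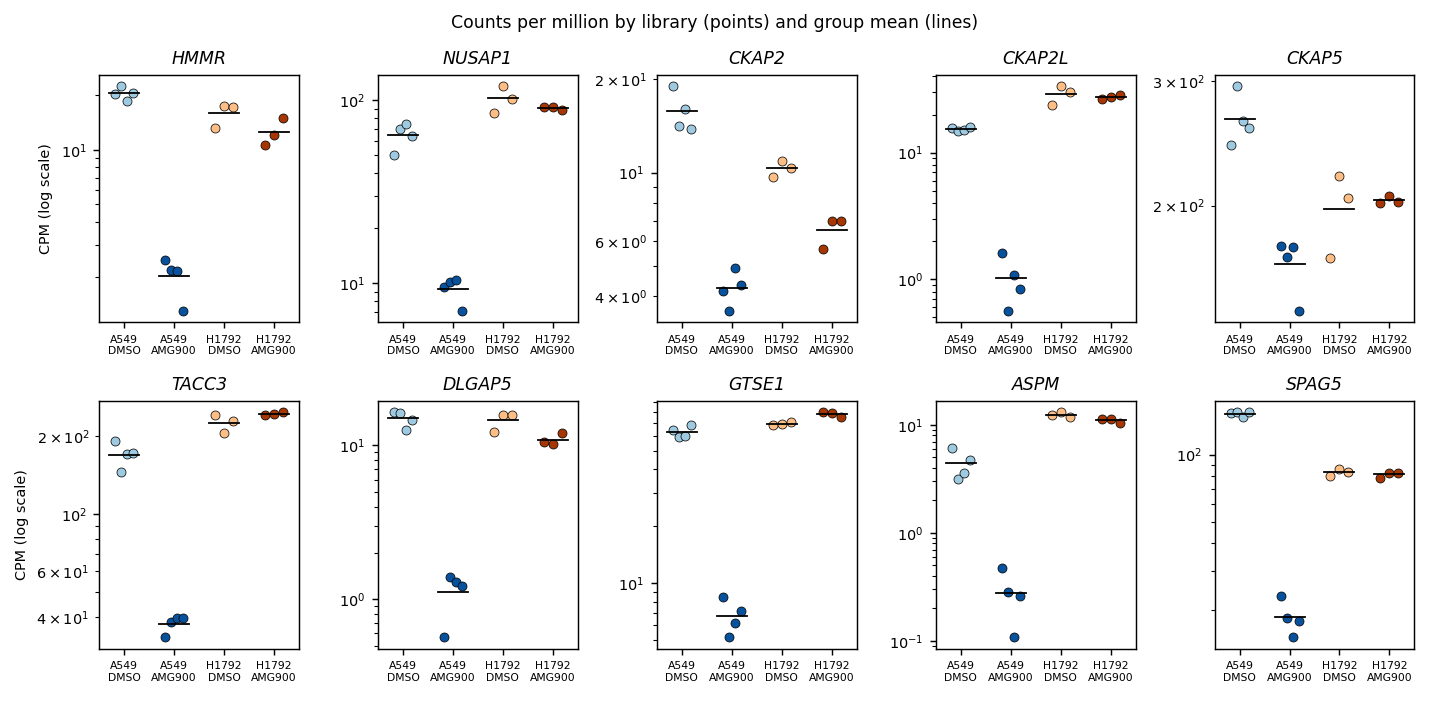
CPM of each spindle gene on a log scale, 1 panel per gene, for the 4 groups. Each point is 1 library (n = 4 per A549 group and 3 per H1792 group) and each line is a group mean. In every panel the 4 A549 AMG900 points sit below the 4 A549 DMSO points, by 1.60-fold for CKAP5 and by 15.9-fold for ASPM in the fit, while the H1792 groups lie close together.

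NUSAP1 and DLGAP5 stabilize and bundle the fibres around chromosomes, and HMMR acts at the spindle poles. NUSAP1 (chr15:41612992-41673248), a bundling protein found on microtubules near chromatin, held 50.3, 69.6, 74.1 and 63.7 CPM in A549 with DMSO and 9.54, 10.1, 10.4 and 7.05 CPM with AMG900. The groups were far apart, with a log2 fold change of -2.81 ± 0.147 (SE, FDR = 1.59e-09), or 6.99-fold lower. The H1792 libraries held 85.1, 120.1 and 102 CPM with DMSO and 92.0, 91.5 and 88.1 CPM with AMG900. The AMG900 libraries lay within the wide DMSO range, and the log2 fold change was -0.18 (95% interval -0.40 to 0.05, FDR = 0.168). NUSAP1 shares its locus with OIP5-AS1 on the same strand and OIP5 on the opposite one. In A549, OIP5 was also downregulated (log2 fold change -2.11, FDR = 0.00117), while OIP5-AS1 had a log2 fold change of -0.04 (FDR = 0.847). In H1792, OIP5-AS1 was upregulated (0.39, FDR = 0.00197) and OIP5 had a log2 fold change of -0.31 (FDR = 0.0398).

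DLGAP5 (HURP, chr14:55614830-55658326) stabilizes kinetochore fibres and is another aurora A substrate. In A549 it held 16.4, 16.1, 12.6 and 14.7 CPM with DMSO and 0.567, 1.40, 1.29 and 1.23 CPM with AMG900, where the counts per library were 6 to 24. Its level was 12.7-fold lower (log2 fold change -3.67 ± 0.227, SE, FDR = 9.19e-09), and AMG900 replicate 1 lay below the other 3. In H1792 the DMSO libraries held 12.1, 15.7 and 15.8 CPM and the AMG900 libraries 10.5, 10.1 and 12.1 CPM. The highest AMG900 value was just under the lowest DMSO value, and the log2 fold change of -0.41 (95% interval -0.68 to -0.15) narrowly missed the threshold at an FDR of 0.0143. It passed with DESeq2 (log2 fold change -0.42, FDR = 0.00316) and without the low-count filter (-0.42, FDR = 0.00574), and over all alternatives its FDR ran from 1.68e-04 to 0.491.

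HMMR (RHAMM, chr5:162887209-162918947) encodes a hyaluronan-binding protein that also focuses spindle poles and helps to localize TPX2. It held 20.4, 22.6, 18.6 and 20.5 CPM in A549 with DMSO and 2.46, 2.18, 2.16 and 1.29 CPM with AMG900. These groups were 10.2-fold apart, with a log2 fold change of -3.35 ± 0.187 (SE, FDR = 3.03e-09). In H1792 it held 13.1, 17.6 and 17.3 CPM with DMSO and 10.7, 12.1 and 14.9 CPM with AMG900. There the groups overlapped, since DMSO replicate 1 lay under AMG900 replicate 3, and the log2 fold change of -0.34 (95% interval -0.66 to -0.03, FDR = 0.0652) was not called. Its antisense gene HMMR-AS1 had at most 5 counts in any library.

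ASPM and SPAG5 act at the spindle poles, and SPAG5 also at kinetochores. ASPM (chr1:197053251-197115824), whose loss causes microcephaly, had the largest fold change of the 10 genes in A549 and the fewest counts. Its DMSO libraries held 6.11, 3.19, 3.59 and 4.75 CPM and its AMG900 libraries 0.472, 0.281, 0.108 and 0.259 CPM, where each AMG900 library had only 2 to 5 counts. The log2 fold change of -3.99 therefore carried the widest 95% interval of the 10, -4.89 to -3.10 (FDR = 2.31e-06). In H1792, with 523 to 887 counts per library, ASPM held 12.4, 13.2 and 11.9 CPM with DMSO and 11.4, 11.3 and 10.5 CPM with AMG900. All AMG900 values were lower, and the log2 fold change of -0.17 (95% interval -0.36 to 0.01, FDR = 0.112) was not called.

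SPAG5 (astrin, chr17:26904583-26926043), which protects kinetochore attachments and sister cohesion, held 154, 155, 147 and 155 CPM in A549 with DMSO and 23.1, 18.5, 15.1 and 17.9 CPM with AMG900. The DMSO libraries were tight, with a mean of 153 ± 3.91 (SD, n = 4), and the level with AMG900 was 8.25-fold lower (log2 fold change -3.04 ± 0.110, SE, FDR = 3.20e-11), the smallest FDR of the 10 genes. Its 3 H1792 DMSO libraries held 80.1, 86.0 and 83.7 CPM and its treated libraries 78.7, 83.0 and 83.1 CPM. These groups overlapped, and the 95% interval of the log2 fold change ran from -0.15 to 0.09 (estimate -0.03, FDR = 0.683). SPAG5-AS1, on the opposite strand, had a log2 fold change of 0.08 (FDR = 0.798) in A549 and of -1.16 (FDR = 0.00325) in H1792, where it held 53 to 200 counts.

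CKAP2 and CKAP2L are related proteins that stabilize microtubules at poles and in the central spindle. CKAP2 (chr13:53029564-53050763) was the only one of the 10 genes called in both lines. In A549 it held 19.0, 14.1, 16.1 and 13.8 CPM with DMSO and 4.16, 3.58, 4.91 and 4.33 CPM with AMG900, which is 3.64-fold lower (log2 fold change -1.86 ± 0.168, SE, FDR = 5.81e-07). In H1792 it held 9.66, 10.9 and 10.4 CPM with DMSO and 5.66, 6.99 and 6.99 CPM with AMG900, which is 1.58-fold lower (log2 fold change -0.66 ± 0.112, SE, FDR = 7.48e-04). All treated libraries lay below all DMSO libraries in both lines, and the H1792 call was lost after a correction for GC content (log2 fold change -0.10, FDR = 0.431, where FDRs over the alternatives ran from 1.46e-06 to 0.461).

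CKAP2L (chr2:113493926-113522241) held 15.7, 14.8, 15.0 and 16.0 CPM in A549 with DMSO and 1.61, 0.562, 1.08 and 0.840 CPM with AMG900, with 8 to 20 counts per treated library. Its level was 15.3-fold lower (log2 fold change -3.94 ± 0.235, SE, FDR = 6.21e-09), next to ASPM in size. Levels in H1792 were 23.7, 33.7 and 30.2 CPM with DMSO and 26.6, 27.6 and 28.3 CPM with AMG900. The treated libraries lay within the DMSO range, and the log2 fold change was -0.08 (95% interval -0.33 to 0.16, FDR = 0.560). The A549 fold of CKAP2L was larger than that of CKAP2, and CKAP2 but not CKAP2L was called in H1792, although the difference between the genes was not tested.

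H1792 DMSO replicate 1 bears on these values. It had the lowest DMSO level of every gene of the 10 but TACC3 and ASPM, and without it 5 of the 10 genes were downregulated in H1792 in place of 1: CKAP2 (-0.73), DLGAP5 (-0.55), HMMR (-0.49), NUSAP1 (-0.32) and CKAP2L (-0.24), as log2 fold changes. CKAP5 then changed sign to -0.08. The share of all genes called without this library was not computed, so these 5 calls have no background beside them. Leaving out any other H1792 library left 1 gene called, and the 10 A549 calls held without each A549 library in turn.

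GC content moved with the changes as well. Transcripts richer in GC had higher log2 fold changes, with a Spearman's rho over genes (not independent of each other) of 0.499 in A549 and 0.481 in H1792. The spindle genes had a median GC content of 40.7% beside 49.3% and 49.5% over all genes tested in A549 and H1792. With a spline correction for GC content in each library, all 10 genes were still downregulated in A549, with a median log2 fold change of -2.98. In H1792 the same correction turned the median to 0.07 and removed the CKAP2 call, and it gave 2 upregulated genes, ASPM (0.36, FDR = 0.00529) and CKAP2L (0.31, FDR = 0.00675). The share of all genes called with this correction was not computed. Over the alternatives the H1792 FDRs ran from 0.00529 to 0.272 for ASPM and from 0.00675 to 0.860 for CKAP2L. Of the 7 genes whose sign turned, HMMR, ASPM, DLGAP5, CKAP2L and NUSAP1 went from lower to higher, and TACC3 and GTSE1 from higher to lower. The directions in H1792 therefore depend on this choice, and which setting is nearer to the change in RNA was not tested.

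**Figure D3:**
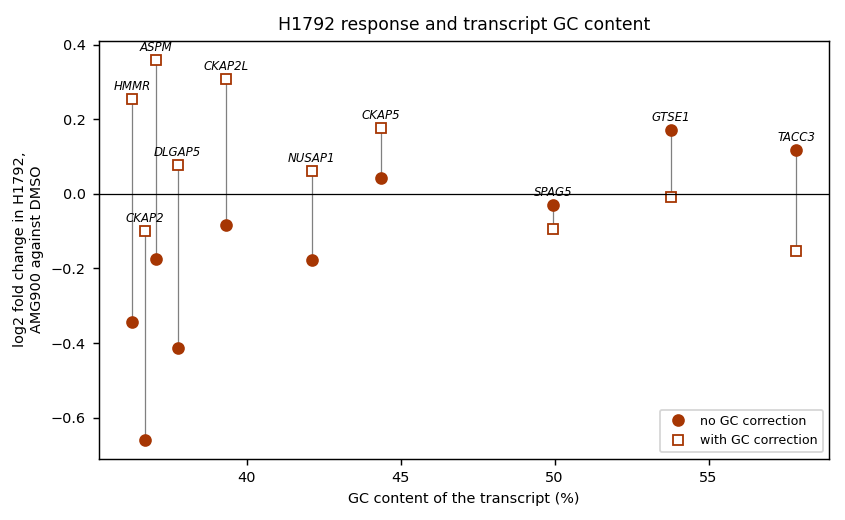
Log2 fold change of each spindle gene in H1792 (vertical axis) against the GC content of its transcript in percent (horizontal axis), without (filled circles) and with (open squares) the correction for GC content. Vertical lines join the values of 1 gene. The values of genes with low GC content, such as HMMR (-0.34 to 0.25) and ASPM (-0.17 to 0.36), move up, and those of GTSE1 and TACC3 (0.12 to -0.15) move down.

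The difference between the lines was tested directly, as the log2 fold change in H1792 minus that in A549 in 1 fit over all 14 libraries. It was above 0 for all 10 genes at an FDR under 0.01, against 5.37% of the 14769 genes tested, and below 0 for none, against 9.17%. The median difference was 2.94, where the median over all genes was -0.10. CKAP2L (3.79 ± 0.247, SE, FDR = 8.22e-10), ASPM (3.77 ± 0.360, FDR = 1.92e-07) and GTSE1 (3.33 ± 0.146, FDR = 3.34e-12) stood highest. The smallest differences were those of CKAP2 (1.12 ± 0.205, FDR = 4.71e-04) and CKAP5 (0.65 ± 0.125, FDR = 7.77e-04). After the correction for GC content all 10 were still called. Line, medium, count table and sequencing depth differ together between these libraries and cannot be told apart.

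With DMSO alone, the lines did not differ in 1 direction. Relative to A549 DMSO, H1792 DMSO held more RNA of ASPM (log2 difference 1.66 ± 0.179, SE), CKAP2L (1.02 ± 0.139), NUSAP1 (0.75 ± 0.123) and TACC3 (0.51 ± 0.0855), all with an FDR of at most 2.37e-05. It held less of SPAG5 (-0.78 ± 0.0885, FDR = 1.81e-07), CKAP2 (-0.49 ± 0.139, FDR = 0.00397) and CKAP5 (-0.32 ± 0.0885, FDR = 0.00285). HMMR (-0.26), GTSE1 (0.24) and DLGAP5 (0.07) were not called. These 4 higher and 3 lower genes stand beside 34.2% and 31.9% of all genes tested, so their shares were near the background. The CKAP2 and CKAP5 calls depended on the setting. Both were lost without H1792 DMSO replicate 1 or with at least 10 counts in every library, CKAP2 also without the low-count filter, without A549 DMSO replicate 3 or without H1792 DMSO replicate 3, and CKAP5 also after the GC correction or without A549 DMSO replicate 2. Over the alternatives the FDR ran from 4.04e-04 to 0.0398 for CKAP2 and from 4.08e-04 to 0.105 for CKAP5. HMMR was called lower after the GC correction (-0.41), with FDRs from 0.00734 to 0.664 over the alternatives. GTSE1 was called higher with DESeq2 (0.22), without the low-count filter (0.30) and with at least 10 counts (0.31), with FDRs from 0.00608 to 0.186.

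Per transcript length, as RPKM (reads per kb of transcript scaled to library size, in 1 scaling over both lines), TACC3 was the most abundant of the 10 in both lines with DMSO, at 57.7 ± 6.39 in A549 (SD, n = 4) and 82.1 ± 6.82 in H1792 (SD, n = 3). In A549 it was followed by SPAG5 (38.6 ± 0.964), CKAP5 (35.3 ± 2.84), NUSAP1 (27.2 ± 4.54) and GTSE1 (20.1 ± 1.49), then HMMR (6.51 ± 0.468), DLGAP5 (4.96 ± 0.524), CKAP2 (4.16 ± 0.606), CKAP2L (3.12 ± 0.131) and ASPM (0.388 ± 0.114). The library ranges overlapped between SPAG5 and CKAP5, between NUSAP1 and GTSE1, and between DLGAP5 and CKAP2. In H1792 the order after TACC3 was NUSAP1 (46.4 ± 7.85), CKAP5 (28.2 ± 3.73), GTSE1 (23.8 ± 0.356), SPAG5 (22.5 ± 0.781), CKAP2L (6.33 ± 1.09), HMMR (5.43 ± 0.831), DLGAP5 (5.17 ± 0.734), CKAP2 (2.92 ± 0.171) and ASPM (1.18 ± 0.0573), with overlap between CKAP5 and GTSE1 and among CKAP2L, HMMR and DLGAP5. With AMG900, CKAP5 (23.2 ± 1.96 RPKM) stood above TACC3 (13.6 ± 1.20 RPKM) in A549 with no overlap of libraries, whereas TACC3 (89.3 ± 1.20 RPKM) remained first in H1792.

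**Figure D4:**
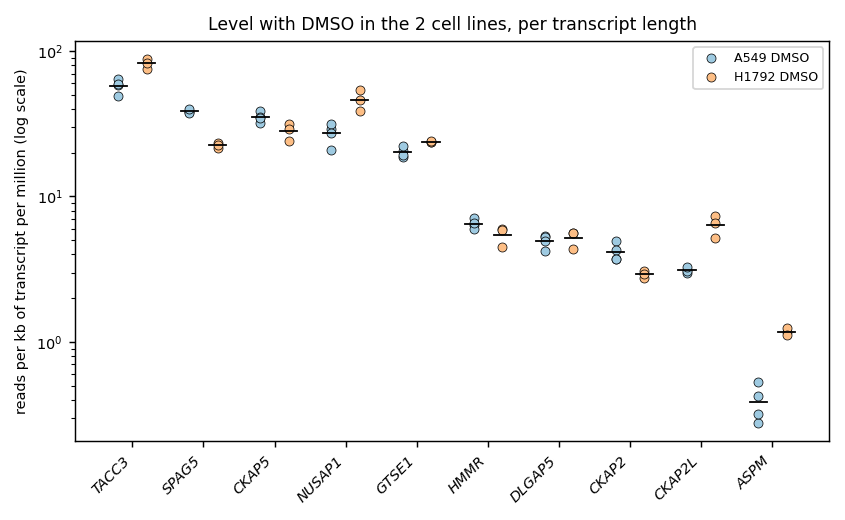
Level of each spindle gene with DMSO in A549 (blue) and H1792 (orange) as RPKM, on a log scale. Points are libraries (n = 4 and 3) and lines are group means, ordered by the A549 mean. TACC3 stands highest in both lines, at 57.7 and 82.1 RPKM, and ASPM lowest, at 0.388 and 1.18 RPKM.

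Other genes of the spindle were less uniform. Of 46 listed genes for spindle assembly, augmin, the gamma-tubulin ring complex and general microtubule binding, 44 were tested in A549, where 29 were downregulated and 3 upregulated, with a median log2 fold change of -0.54, beside 17.8% and 17.2% of all genes tested. In H1792, 11 of 46 were downregulated and 8 upregulated, with a median of 0.0025, and these shares were near the 18.8% and 16.2% of all genes tested. The difference between the lines was called above 0 for 16 of the 46 and below 0 for 2, beside 5.37% and 9.17% of all genes. By subgroup in A549, 10 of 14 genes for assembly and orientation, 6 of 7 augmin subunits, 7 of 11 genes of the gamma-tubulin ring complex and 6 of 12 general microtubule-binding genes were downregulated. The corresponding counts in H1792 were 6 of 15, 1 of 8, 2 of 11 and 2 of 12. In the same order, 1, 0, 0 and 2 genes were upregulated in A549, and 2, 1, 4 and 1 in H1792.

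**Figure D5:**
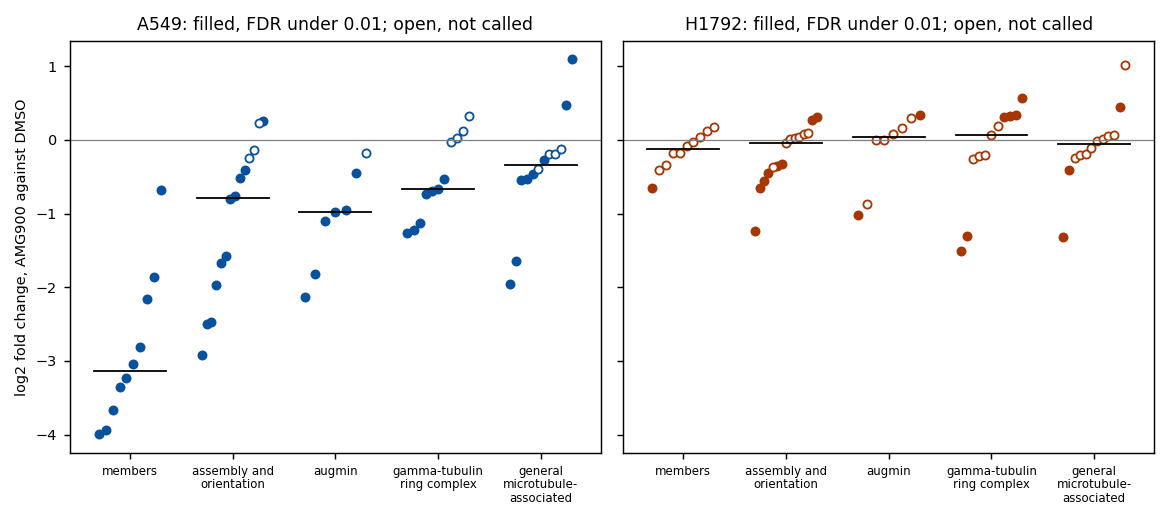
Log2 fold change with AMG900 against DMSO (vertical axis) of the 10 spindle genes ("members") and of the other spindle genes by subgroup, in A549 (left) and H1792 (right). Each point is a gene, lines are medians, and filled points passed an FDR of 0.01. The 10 genes have a median of -3.14 in A549, beside medians between -0.98 and -0.33 for the other subgroups, and all H1792 medians lie between -0.13 and 0.07.

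Known partners of the 10 proteins differed from each other. KIF2C, the depolymerase that GTSE1 inhibits, and TPX2, which activates aurora A and works with HMMR, fell in A549 by 2.92 ± 0.152 and 2.47 ± 0.0741 on the log2 scale (SE, FDR = 1.47e-09 and 6.43e-12). Mean KIF2C levels in A549 were 64.9 ± 3.75 CPM in the DMSO group and 8.56 ± 2.05 CPM in the treated group (SD, n = 4). In H1792 their log2 fold changes were 0.09 (FDR = 0.169) and 0.02 (FDR = 0.792). The kinetochore partner of SPAG5, KNSTRN, was downregulated in A549 (-1.58 ± 0.175, FDR = 4.60e-06) and upregulated in H1792 (0.31 ± 0.0718, FDR = 0.00463). CLTC, the clathrin heavy chain that binds TACC3, was downregulated in both lines (-0.41 in A549 with FDR = 4.63e-04, and -0.55 in H1792 with FDR = 3.11e-04), and the difference between the lines was not called (-0.22, FDR = 0.159). KATNA1, the catalytic subunit of the microtubule-severing enzyme katanin, a partner of ASPM, was downregulated in H1792 (-0.44, FDR = 0.00242), with a log2 fold change of -0.25 (FDR = 0.261) in A549. For KATNA1, too, the difference between the lines was not called (-0.28, FDR = 0.331). Alternatives such as the GC content correction were examined for the 10 spindle genes only. How these partner calls depend on them was not tested.

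Among these other spindle genes, KIF2C and FAM83D, a chromosome congression factor, fell most in A549 (FAM83D by 2.50 ± 0.108 on the log2 scale, FDR = 1.89e-10). The plus-end protein MAPRE3 (1.09 ± 0.0881, FDR = 1.83e-07) and MAP1B (0.47 ± 0.0693, FDR = 6.65e-05) rose most. In H1792 the largest falls were those of NEDD1, which anchors the gamma-tubulin ring complex (-1.51 ± 0.198, FDR = 1.45e-04), and of CLASP2, a plus-end stabilizer (-1.32 ± 0.185, FDR = 2.31e-04). Among the genes called in H1792, the largest rises were those of TUBG1, gamma-tubulin itself (0.57 ± 0.0593, FDR = 3.78e-05), and MAPRE3 (0.45 ± 0.0667, FDR = 3.05e-04). NEDD1 and CLASP2 were also downregulated in A549, with log2 fold changes of -1.22 and -1.64, and for neither was the difference between the lines called (FDR = 0.488 and 0.509). The calls of these other spindle genes were not examined under the alternatives, including the GC content correction.

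Genes of the cell cycle lists were also downregulated in A549. Of the G2/M list of the R package Seurat, which holds 8 of the 10 genes (all but ASPM and SPAG5), 43 of the 45 other genes tested were downregulated in A549, with a median log2 fold change of -2.79, beside 17.8% of all genes. In H1792, 10 of its 46 other genes were downregulated and 7 upregulated, with a median of -0.04, which was near the background of 18.8% and 16.2%. For the proliferation marker MKI67 the log2 fold change was -3.46 ± 0.138 (SE, FDR = 8.34e-11) in A549 and 0.08 ± 0.0946 (FDR = 0.522) in H1792. All 41 S-phase genes tested were downregulated in A549 (median -2.40), and 26 of 42 were downregulated in H1792 (median -0.56), beside 17.8% and 18.8% of all genes. The calls of both lists were not examined under the alternatives, including the GC content correction. After centring each line on its own mean, the genes whose level over the 14 libraries lay nearest to the mean of the 10 spindle genes were MELK, HMGB2, KIF23, NCAPH and ZWINT, at root mean square distances of 0.0991, 0.101, 0.115, 0.118 and 0.126 log2 CPM units, where the median distance over 14759 genes was 1.13. Among the 10 genes, which enter that mean, SPAG5 lay nearest to it at 0.125 and CKAP5 farthest at 0.830.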

How the data were processed

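RNA sequencing libraries of A549 (4 DMSO, 4 AMG900) and H1792 (3 DMSO, 3 AMG900) were analysed. The authors deposited raw read counts per gene symbol, without normalization, in 1 table per line. The submitters' processing notes name STAR, HTSeq and the build GRCh37/hg19. Versions, annotation and strand setting are not given in the sources used here. In the H1792 table, 28 of 26760 entries named as dates (at most 0.117% of a library) were left out.

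R 4.3.3, edgeR 4.0.16 and DESeq2 1.42.0 were used. Genes were kept by filterByExpr, scaled by TMM, and tested by the quasi-likelihood method of edgeR, with p-values adjusted after Benjamini and Hochberg over all genes tested and an FDR threshold of 0.01. AMG900 was compared with DMSO within each line, without a replicate block. The difference between the lines (an interaction term) and the 2 DMSO groups were tested in 1 fit over 14 libraries joined by symbol. Log2 CPM used a prior count of 2. The common biological coefficient of variation was 12.8% in A549 and 9.60% in H1792, and at 2 to 5 counts (ASPM in treated A549) counting error adds to it. Replicates differed by more than sampling noise (chi-square per gene of at least 3.33) and were counted separately.

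Gene positions, lengths and GC content came from GENCODE v44lift37 (22365 symbols matched directly, 1206 by an older symbol, and 320 matched more than 1 gene), promoters from RefSeq. In simulated counts, 59.8% of changes of 1 log2 unit and 92.0% of changes of 2 were recovered in A549 (13174 genes), 80% and 94% in H1792 (15017 genes), and 50.5% and 78.5% for the difference between the lines (14769 genes). The simulation changed far fewer genes (87 and 113 in A549) than were called in the data (4605 in A549). It also drew each gene at its mean over all libraries. These shares therefore do not give the recovery of the tests reported here.

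Alternatives were DESeq2, its size factors, total-count scaling, a replicate block, no low-count filter, a minimum of 10 counts in every library, a 0.05 FDR threshold, a minimum change of 2-fold, a GC content spline with 5 degrees of freedom, that spline with the block, and leaving out each library. Of single genes, only the 10 spindle genes were examined under them. The 10 genes, the lists and the partners (KNSTRN, CLTC, KATNA1, TPX2, KIF2C) were chosen with earlier results of these data known. Other spindle genes named are the 2 largest rises and 2 largest falls among those called per line, and the 5 nearest genes are those with the smallest root mean square distance. MKI67, OIP5, OIP5-AS1, SPAG5-AS1, HMMR-AS1 and TMEM129 were named outside this rule. Some items of the lists are not reported here by name.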

Additional observations from a re-analysis of the deposited data

Results flagged for a closer look

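In A549 AMG900, CKAP5 in replicate 4 had a log2 CPM of 7.15, apart from the other 3 libraries at 7.40 to 7.45. In the same group, DLGAP5 in replicate 1 had a log2 CPM of -0.47, apart from the other 3 at 0.47 to 0.64. These were the 2 of 20 groups of 4 libraries (10 genes, A549 DMSO and AMG900) that held a library beyond the 95% limit of Dixon's test, and chance alone gives about 1 in 20.

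The response to AMG900 differed between the lines in the test of the difference itself for all 10 genes, with log2 fold changes higher in H1792 than in A549 by 2.94 for HMMR, 2.56 for NUSAP1, 1.12 for CKAP2, 3.79 for CKAP2L, 0.65 for CKAP5, 2.20 for TACC3, 3.17 for DLGAP5, 3.33 for GTSE1, 3.77 for ASPM and 2.94 for SPAG5.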

How the results depend on the processing

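All 10 genes were downregulated in A549, and differed between the lines, under every alternative that tested them with 2 exceptions: CKAP5 changed by less than 2-fold, which left 9, and 3 genes were not tested with at least 10 counts in every library, which left 7. Median log2 fold changes in A549 were then -2.77 with at least 10 counts, -2.98 with the GC content correction and -3.25 to -3.07 with each library left out. The median difference between the lines was 2.55 with at least 10 counts. In H1792, 2 genes in place of 1 were downregulated with DESeq2, without the low-count filter and at an FDR of 0.05, where 1 was upregulated, and 0 at 2-fold. Leaving out libraries gave 1 to 5, with 5 without H1792 DMSO replicate 1, medians of -0.22 to -0.04, CKAP2L between -0.24 and 0.024 and CKAP5 between -0.084 and 0.12. Total-count scaling turned CKAP5 to -0.026 in H1792. Shares over all genes were not computed under the alternatives, apart from the total calls with the replicate block.

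The GC content correction gave 0 downregulated and 2 upregulated genes in H1792 and a median of 0.069. Log2 fold changes became 0.25 (HMMR), 0.060 (NUSAP1), 0.31 (CKAP2L), -0.15 (TACC3), 0.078 (DLGAP5), -0.0076 (GTSE1) and 0.36 (ASPM), and CKAP2 lost its call at -0.10. The cause was not tested. Same-numbered libraries did not deviate together (correlations of -0.04 to 0.01 in A549 and -0.06 to 0.04 in H1792), so the numbers were not taken to pair them. A replicate block gave 10 downregulated genes in A549 and 2 in H1792, where DLGAP5 (-0.41, FDR = 0.00994) joined CKAP2, with 3907 in place of 4605 calls over all genes in A549 and 4788 in place of 5266 in H1792. With GC correction and block, the A549 median was -2.98. In H1792 there were 0 downregulated and 2 upregulated genes, a median of 0.071, and values of 0.25 (HMMR), 0.066 (NUSAP1), 0.31 (CKAP2L), -0.15 (TACC3), 0.077 (DLGAP5), -0.0073 (GTSE1) and 0.36 (ASPM).

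Between the DMSO groups, at least 10 counts gave 1 lower gene and a median of -0.20, 2-fold gave 2 higher and 0 lower, and leaving out libraries gave 1 to 3 lower, with 1 without H1792 DMSO replicate 1, and medians of 0.11 to 0.28. DLGAP5 became -0.034 with total-count scaling and ranged from -0.0044 to 0.25 with libraries left out.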
